A study of Homo sapiens with 9 samples.

Results

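The 10 genes described here move iron into, around and out of a cell, and were read from the deposited expression table of HKC-8 cells, a human kidney proximal tubular epithelial line. They were taken by symbol: the exporter SLC40A1, the uptake genes TFRC, STEAP3, SLC11A2 and SLC39A14, the storage genes FTH1 and FTL, the ferritin receptor NCOA4, and the RNA-binding regulators ACO1 and IREB2. These are 10 of the 20323 genes in the table. Where a symbol stands on several rows the row with the largest summed count was to be used, but each of the 10 symbols stood on 1 row, so the summed count decided nothing. The list itself was chosen by symbol with earlier results of these libraries, fold changes between the groups included, already known, so counts over the members are a description and support nothing by themselves.

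The study compared 3 groups of 3 libraries. Control cells were transfected with the empty plasmid pcDNA3. Wnt1 cells received a plasmid for Wnt1, a secreted signalling ligand. Wnt1_KP6 cells carried that plasmid too and were treated with KP6, a peptide derived from the kidney protein Klotho. All 9 libraries are from the same cell line and carry the batch label 1. The labels give no dose, no time of treatment and no statement on whether replicates came from separate cultures. The p-values therefore cover the spread of these libraries alone, and that spread may be technical.

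Iron reaches most cells as ferric iron on transferrin, which binds the transferrin receptor TFRC and is carried into endosomes. There STEAP3 reduces it and SLC11A2 (DMT1) moves it to the cytosol, while SLC39A14 (ZIP14) can import iron that is not bound to transferrin. Surplus iron is held in ferritin, a shell of FTH1 and FTL subunits that NCOA4 delivers to lysosomes for breakdown, and ferroportin (SLC40A1) is the known exporter of cellular iron. When iron is low, the regulators ACO1 (IRP1) and IREB2 (IRP2) bind hairpins called iron responsive elements in the untranslated ends of several of these mRNAs, which blocks translation from the 5′ end and protects the mRNA from decay at the 3′ end. In the kidney, proximal tubule cells take up filtered iron and are sensitive to iron-driven damage after injury.

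The hairpins that these regulators bind are shown here because they divide the 10 genes into those with a known regulatory loop at the 5′ end, those with loops at the 3′ end and those in which none was matched. Transcripts of GENCODE release 29 were searched for a C, a 5-base stem, the loop CAGTGN and a 5-base stem that pairs with the first, with G-T pairs allowed, in the untranslated regions of protein-coding genes and on the transcript strand. Each site is printed as 30 bases of DNA, 5′ to 3′, with the loop in capitals.
FTH1, 5′ untranslated region, chr11:61967573-61967602, minus strand: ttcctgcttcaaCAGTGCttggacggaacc
FTL, 5′ untranslated region, chr19:48965335-48965364, plus strand: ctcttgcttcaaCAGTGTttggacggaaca
SLC40A1, 5′ untranslated region, chr2:189580660-189580689, minus strand: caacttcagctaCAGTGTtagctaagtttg
TFRC, 3′ untranslated region, chr3:196050978-196051007, minus strand: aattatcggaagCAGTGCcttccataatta
TFRC, 3′ untranslated region, chr3:196050574-196050603, minus strand: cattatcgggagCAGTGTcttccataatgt
TFRC, 3′ untranslated region, chr3:196050509-196050538, minus strand: ctgtatcggagaCAGTGAtctccatatgtt
TFRC, 3′ untranslated region, chr3:196050462-196050491, minus strand: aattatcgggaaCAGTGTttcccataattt
Coordinates are on GRCh38, the assembly also called hg38. The same search matched 36 of 18809 genes (0.191%) in the 5′ region and 132 of 19104 (0.691%) in the 3′ region, over regions of differing length. No match in the other 6 genes says only that these letters with a full stem were not found there.

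Library totals were 21199078 to 27507623 expected counts, and 13153 genes, all 10 iron genes among them, passed the filter on low counts. WNT1 had 0 counts in every control library and in every Wnt1-labelled library, and 1, 2 and 0 counts in Wnt1_KP6-labelled libraries. By counting error alone a 0 leaves room for 3 counts (0.109 to 0.142 CPM). These counts give no check of the plasmid, and every direction below rests on the labels. Replicate 1 stood apart in each group: on the first principal component (38.1% of variance) it lay at -38.82 to -37.36, against 9.21 to 25.07 for the other 6 libraries. Of 12 proximal tubule markers, 9 were under 1 CPM in every library, the endocytic receptors LRP2 and CUBN and the transporter SLC34A1 among them, whereas GGT1, MME and DPP4 were expressed. Of the kidney epithelial markers 6 of 8 reached 1 CPM, PAX8, KRT8 and KRT18 with the highest levels. PAX2 (at most 0.135 FPKM) and CDH1, which encodes E-cadherin (at most 0.079 FPKM), did not. Every listed marker of distal nephron, endothelium, leukocytes and red cell precursors was under 1 CPM in all libraries, with UMOD, KDR, PTPRC and HBB at 0 counts.

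In FPKM, the authors' value per gene length and library size, the storage genes stood far above the rest. In control libraries FTL was at 5912 ± 632 FPKM (mean ± SD, n = 3, as for all values in this form) and FTH1 at 3045 ± 1074. NCOA4 (129 ± 14.0) and TFRC (60.2 ± 12.7) followed. SLC11A2 (32.7 ± 10.1), ACO1 (30.8 ± 9.65) and SLC39A14 (30.2 ± 3.91) did not differ beyond their spread. Lowest were STEAP3 (18.5 ± 5.80), IREB2 (10.6 ± 1.67) and SLC40A1 (9.34 ± 1.27), and the values of IREB2 and SLC40A1 overlapped. FTL ranked between the 4th and the 8th of all 20323 genes by FPKM in each library and FTH1 between the 8th and the 16th.

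From here levels are CPM, each library's counts scaled to its TMM-normalised size, and fold changes are log2 values with their standard error (SE). They come from an edgeR quasi-likelihood model of all 9 libraries, tested on both sides, with p-values adjusted by Benjamini and Hochberg over 13153 genes. "Called" means an adjusted p under 0.05. In bulk RNA, fewer cells of a kind and less RNA per cell cannot be told apart.

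**Figure D1:**
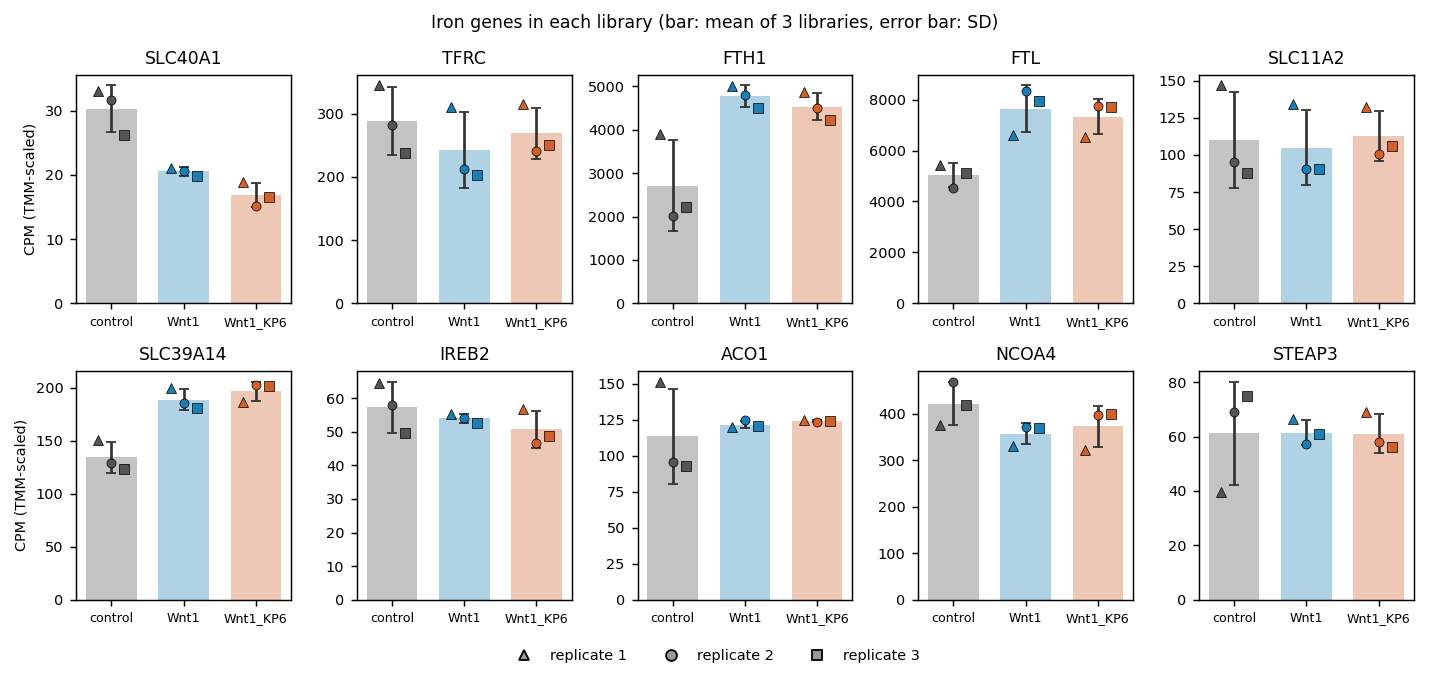
Level of each of the 10 iron genes in each library, in CPM scaled by TMM, by group. Bars are means of 3 libraries, error bars SD, and the triangle marks replicate 1. SLC40A1 steps down from control (30.31 CPM) through Wnt1-labelled libraries (20.53) to Wnt1_KP6 (16.89) with no overlap between groups.

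The exporter SLC40A1 (ENSG00000138449, chromosome 2, 189560579 to 189583758, minus strand) was the member that the test called. It was at 32.99, 31.71 and 26.23 CPM in control replicates 1 to 3, at 21.11, 20.66 and 19.81 in Wnt1-labelled libraries, and at 18.92, 15.11 and 16.62 in the Wnt1_KP6-labelled ones. The 3 groups did not overlap in any pairing: every Wnt1_KP6 library was below every Wnt1 library, and every Wnt1 library below every control. SLC40A1 fell in Wnt1_KP6 over control by 0.84 ± 0.12 on the log2 scale (adjusted p = 0.0388), from 30.31 ± 3.59 to 16.89 ± 1.92 CPM, a 1.79-fold lower level.

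The same gene was at -0.56 ± 0.12 in Wnt1 over control (adjusted p = 0.142) and at -0.28 ± 0.12 in Wnt1_KP6 over Wnt1 (adjusted p = 1), neither called. In replicate 1 alone the difference between Wnt1_KP6 and control was -0.80, and in replicates 2 and 3 alone it was -0.87 ± 0.11. For Wnt1 over control the values were -0.64 and -0.52 ± 0.11. Replicate 1 is 1 library a group and has no error of its own, so such pairs of values are a description.

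The call for SLC40A1 in Wnt1_KP6 over control was kept in 8 of 16 alternative fits, with adjusted p from 1.29e-06 (DESeq2) to 0.276. It was lost without control replicate 2 (adjusted p = 0.276) or 3 (0.081), Wnt1 replicate 2 (0.109) or 3 (0.114), or Wnt1_KP6 replicate 2 (0.264) or 3 (0.217), and on the deposited FPKM (0.062 and 0.063 with the smaller and larger pseudocount), while the value stayed between -0.94 and -0.78. Among all tested genes, the fit without Wnt1 replicate 2 called 2 and the other leave-out fits that lost the call called 0. Those that kept it, without control, Wnt1 or Wnt1_KP6 replicate 1, called 1198, 43 and 692.

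Ferritin mRNA was more abundant in all 6 libraries labelled as carrying the Wnt1 plasmid than in the empty-vector controls. FTH1 (ENSG00000167996, chromosome 11, 61959718 to 61967660, minus strand), the heavy subunit that oxidises iron, was at 3909, 2015 and 2211 CPM in control replicates 1 to 3. It was at 4994, 4806 and 4492 CPM in Wnt1-labelled libraries and at 4856, 4495 and 4230 in the Wnt1_KP6-labelled ones. Control replicate 1 lay nearest to the other groups, and the groups did not overlap with control. The log2 fold change was 0.81 ± 0.23 in Wnt1 over control (adjusted p = 0.237) and 0.74 ± 0.23 in Wnt1_KP6 over control (adjusted p = 0.168), neither called, and the control mean was 2711 ± 1040 CPM.

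FTL (ENSG00000087086, chromosome 19, 48965301 to 48966878, plus strand), the light subunit that helps iron to mineralise inside the shell, was at 5450, 4515 and 5101 CPM in control. The libraries labelled Wnt1 held 6621, 8356 and 7962 CPM and the Wnt1_KP6-labelled ones held 6535, 7766 and 7707. Here replicate 1 was the lowest library of both Wnt1-plasmid groups, and still above every control. Its log2 fold change was 0.61 ± 0.13 in Wnt1 over control (adjusted p = 0.15) and 0.55 ± 0.13 in Wnt1_KP6 over control (adjusted p = 0.118), neither called.

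Between the Wnt1 and Wnt1_KP6 groups the ferritin genes overlapped. FTH1 was at -0.07 ± 0.23 and FTL at -0.06 ± 0.13 in Wnt1_KP6 over Wnt1 (adjusted p = 1 for both). Together the 2 genes took 0.980%, 0.666% and 0.735% of all expected counts in control replicates 1 to 3. Their share was 1.19%, 1.31% and 1.25% in Wnt1-labelled libraries and 1.16%, 1.16% and 1.13% in the Wnt1_KP6-labelled ones. The lowest Wnt1-plasmid library thus lay above the highest control library.

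**Figure D2:**
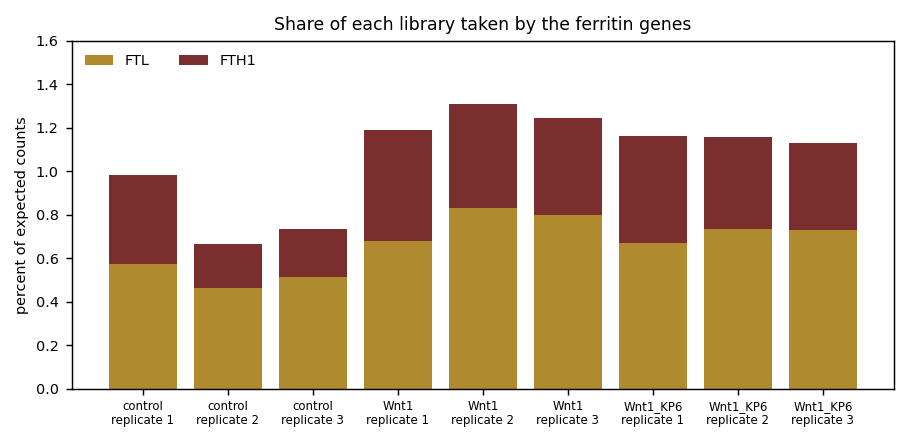
Percent of each library's expected counts assigned to FTL (lower part of the bar) and FTH1 (upper part). Control replicates 2 and 3 have the smallest shares (0.666% and 0.735%), control replicate 1 lies between (0.980%), and the Wnt1-plasmid libraries reach 1.13% to 1.31%.

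The ferritin values were smaller in replicate 1, with 1 library a group, than in replicates 2 and 3. FTH1 in Wnt1 over control stood at 0.35 in replicate 1, against 1.14 ± 0.07 in the other replicates. FTL gave 0.28 and 0.76 ± 0.07. In Wnt1_KP6 over control FTH1 was at 0.31 and 1.04 ± 0.07, and FTL at 0.26 and 0.68 ± 0.07. Without control replicate 1, both genes were called as higher in Wnt1 over control (FTH1 1.17, adjusted p = 0.000955, and FTL 0.67, adjusted p = 0.0312) and in Wnt1_KP6 over control (1.10, adjusted p = 0.00121, and 0.61, adjusted p = 0.0353). FTL was also called in the latter without Wnt1_KP6 replicate 1 (0.62, adjusted p = 0.0363). These fits called many genes. Without control replicate 1 they were 879 of 13268 in Wnt1 over control and 1198 in Wnt1_KP6 over control. Without Wnt1_KP6 replicate 1 they were 692 of 13305 in Wnt1_KP6 over control. The main fit called 16 and 30 of 13153 in these comparisons. Every single-gene call given below for these fits is to be read beside these counts. Over 16 alternatives the adjusted p ran from 2.11e-08 to 0.834 for FTH1 and from 1.33e-06 to 0.653 for FTL in Wnt1 over control, and from 2.36e-08 to 0.521 and 2.4e-06 to 0.474 in Wnt1_KP6 over control.

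Values of the ferritin genes carry a further uncertainty from shared sequence. GENCODE names 25 pseudogenes after FTH1 and 16 after FTL, and 17.7% and 9.45% of the 75-base stretches of their coding transcripts also occur in other annotated genes. In FTH1, 62.4% of exon bases lie opposite BEST1, and the library kit is not stated to keep strand. The 10 genes differ in this: no other member shared more than 1.37% of its 75-base stretches (IREB2).

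NCOA4 (ENSG00000266412, chromosome 10, 46005088 to 46030714), the receptor that carries ferritin to lysosomes, had 376.5, 469.2 and 419.7 CPM in control. It had 331.4, 372.8 and 369.3 CPM in Wnt1-labelled libraries and 322.1, 397.1 and 400.3 in the Wnt1_KP6-labelled ones. All 3 Wnt1 libraries were below control, by a narrow margin, whereas Wnt1_KP6 overlapped with control, although each of its libraries was below the control of the same number. With the replicate block NCOA4 was at -0.18 ± 0.07 in Wnt1_KP6 over control, not called (adjusted p = 0.224). NCOA4 was at -0.24 ± 0.12 in Wnt1 over control (adjusted p = 0.512), at 0.06 ± 0.12 in Wnt1_KP6 over Wnt1 (adjusted p = 1) and at -0.18 ± 0.12 in Wnt1_KP6 over control (adjusted p = 0.544). In replicates 2 and 3 alone NCOA4 was called as lower in Wnt1 over control (-0.26 ± 0.06, adjusted p = 0.00609), where that fit called 31.6% of genes.

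Among the uptake genes only SLC39A14 separated the groups. SLC39A14 (ENSG00000104635, chromosome 8, 22367249 to 22434129), the importer of iron that is not on transferrin and also of zinc and manganese, was at 150.6, 128.7 and 123.6 CPM in control. It stood at 199.5, 185.9 and 180.6 CPM in Wnt1-labelled libraries and at 186.2, 202.2 and 201.4 in the Wnt1_KP6-labelled ones. Every Wnt1-plasmid library exceeded every control library. The log2 fold change was 0.49 ± 0.10 in Wnt1 over control (adjusted p = 0.128), 0.55 ± 0.10 in Wnt1_KP6 over control (adjusted p = 0.0633) and 0.06 ± 0.10 in Wnt1_KP6 over Wnt1 (adjusted p = 1).

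With the replicate number as a block, SLC39A14 was called in Wnt1_KP6 over control (0.56 ± 0.09, adjusted p = 0.047), and over its 16 alternatives the adjusted p ran from 1.21e-06 to 0.346. It was called there without control replicate 1 (0.64, adjusted p = 0.00468) or Wnt1_KP6 replicate 1 (0.59, adjusted p = 0.0194), and in Wnt1 over control without control replicate 1 (0.58, adjusted p = 0.00791).

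TFRC (ENSG00000072274, chromosome 3, 196027183 to 196082189, minus strand), the transferrin receptor with the 3′ hairpins printed above, varied between replicates within every group. It was at 344.9, 281.7 and 238.0 CPM in control, 311.5, 212.1 and 203.5 in Wnt1-labelled libraries, and 315.5, 241.5 and 250.9 in the Wnt1_KP6-labelled ones. Replicate 1 was the highest library of each group, and the 3 groups overlapped. Each Wnt1-labelled library was below the control of the same number. With the replicate block TFRC was at -0.26 ± 0.09 in Wnt1 over control, not called (adjusted p = 0.216). Without it TFRC was at -0.25 ± 0.20 in Wnt1 over control (adjusted p = 0.703), 0.15 ± 0.20 in Wnt1_KP6 over Wnt1 (adjusted p = 1) and -0.10 ± 0.20 in Wnt1_KP6 over control (adjusted p = 0.869). In replicates 2 and 3 alone TFRC was called as lower in Wnt1 over control (-0.32 ± 0.08, adjusted p = 0.00525), where that fit called 31.6% of genes.

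SLC11A2 (ENSG00000110911, chromosome 12, 50979401 to 51028566, minus strand), the endosomal iron transporter, had the same layout. Replicate 1 held 146.8, 134.1 and 132.3 CPM in control, Wnt1 and Wnt1_KP6, while the other 6 libraries lay between 87.5 and 105.8. The group means were 109.8 ± 32.3, 104.9 ± 25.2 and 112.9 ± 17 CPM. None of its 3 fold changes was called (-0.07 ± 0.23, 0.11 ± 0.23 and 0.04 ± 0.23 in Wnt1 over control, Wnt1_KP6 over Wnt1 and Wnt1_KP6 over control, adjusted p = 0.955, 1 and 0.961).

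STEAP3 (ENSG00000115107, chromosome 2, 119223831 to 119265652), the endosomal ferric reductase, had 39.46, 69.10 and 74.83 CPM in control, 66.48, 57.09 and 60.78 in Wnt1-labelled libraries, and 69.20, 57.92 and 56.04 in the Wnt1_KP6-labelled ones. Control replicate 1 was far below the other 8 libraries, and controls 2 and 3 were at or near the top. The group means were thus nearly equal (61.1, 61.5 and 61.1 CPM) although the replicates were not. In Wnt1 over control STEAP3 was at 0.75 in replicate 1 and at -0.29 ± 0.08 in replicates 2 and 3. In Wnt1_KP6 over control the values were 0.81 and -0.34 ± 0.08. The values of opposite sign rest on the 1 low library, control replicate 1. Of its exon bases 11% lie opposite STEAP3-AS1.

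The regulator ACO1 (ENSG00000122729, chromosome 9, 32384603 to 32454769), a cytosolic aconitase that binds iron responsive elements when it lacks its iron-sulfur cluster, was at 151.5, 95.97 and 93.20 CPM in control. The 6 Wnt1-plasmid libraries lay within 119.8 to 125.3 CPM. They fell between control replicate 1 and controls 2 and 3, so the sign in replicate 1 rests on that 1 control library. ACO1 in Wnt1 over control stood at -0.34 in replicate 1, at 0.38 ± 0.07 in the other replicates, and 0.10 ± 0.17 over all libraries (adjusted p = 0.886). In Wnt1_KP6 over control it was -0.27 and 0.39 ± 0.07, and 0.13 ± 0.17 over all (adjusted p = 0.782). Without control replicate 1 ACO1 was called as higher in both (0.37, adjusted p = 0.0203, and 0.39, adjusted p = 0.0136).

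IREB2 (ENSG00000136381, chromosome 15, 78437431 to 78501456), the second regulator, which is removed by proteolysis when iron is plentiful, ranged little. It was at 64.54, 57.88 and 49.49 CPM in control, 55.24, 54.19 and 52.52 in Wnt1-labelled libraries, and 56.77, 46.50 and 48.80 in the Wnt1_KP6-labelled ones. The groups overlapped, and the fold changes were -0.09 ± 0.12, -0.09 ± 0.12 and -0.18 ± 0.12 in Wnt1 over control, Wnt1_KP6 over Wnt1 and Wnt1_KP6 over control (adjusted p = 0.855, 1 and 0.522).

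**Figure D3:**
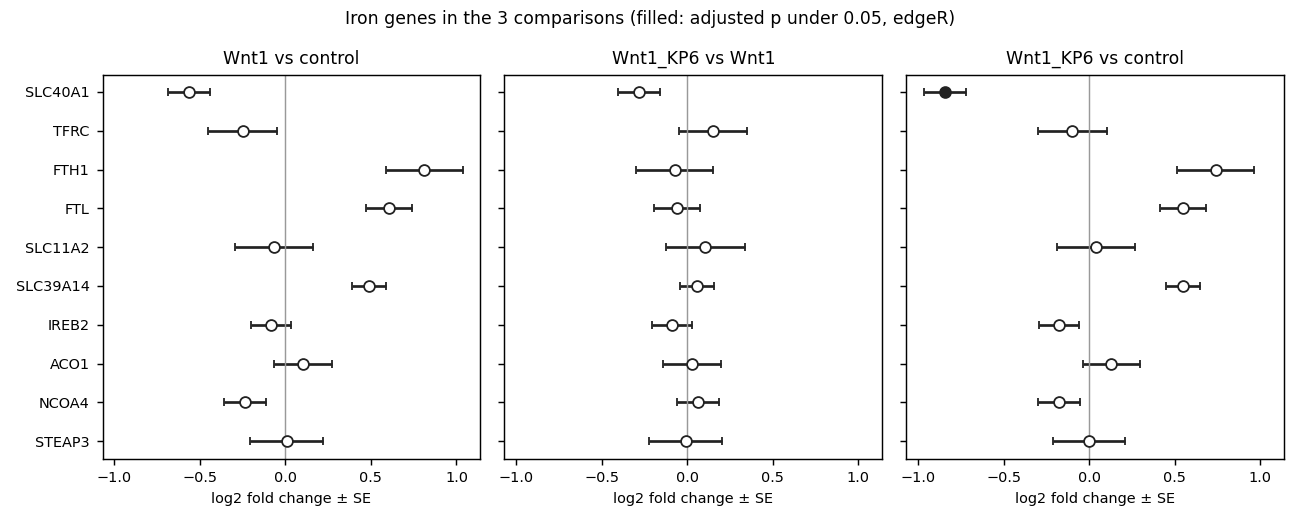
Log2 fold change with SE of the 10 iron genes in each comparison, from edgeR over all 9 libraries. The single filled point is SLC40A1 in Wnt1_KP6 over control (-0.84), and FTH1, FTL and SLC39A14 lie to the right of 0 in both comparisons with control.

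Set against all genes, the members were counted as follows in Wnt1 over control. None of the 10 was called by edgeR, where 0.122% of all genes were, although 4 had an unadjusted p under 0.05 (SLC40A1 lower, FTH1, FTL and SLC39A14 higher), as did 11.2% of all genes, and DESeq2 called these 4 (2.31% of all genes). The replicate block called 0 members (0.722% of genes). Control and Wnt1 ranges were fully separate for 3 members on the higher side (8.67% of genes) and for 2 on the lower side, SLC40A1 and NCOA4 (7.87%). The median log2 fold change of the 10 was -0.03, beside 0.00 over all genes tested (-0.003).

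In Wnt1_KP6 over control edgeR called 1 of 10 members, against 0.228% of all genes, the replicate block called 2 (1.13% of genes) and DESeq2 called 4 (5.35%). FTH1, FTL and SLC39A14 did not overlap with control on the higher side (8.74% of genes) and SLC40A1 on the lower side (7.8%). The median was 0.02, beside -0.005 over all genes. These 2 comparisons share the control libraries, so their likeness is no independent support.

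Adding KP6 to the Wnt1 plasmid moved none of the 10 past the threshold. In Wnt1_KP6 over Wnt1 edgeR called 0 members and 0% of all genes, 1 member (SLC40A1) had an unadjusted p under 0.05, as did 2.76% of genes, DESeq2 called 0 members and 0.153% of genes, and the replicate block called 0 members and 0% of genes. SLC40A1 was also the 1 member whose libraries did not overlap, on the lower side (2.94% of genes), and 0 members did so on the higher side (2.87%). The 5 members above 0 and the 5 below lay between -0.28 and 0.15.

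In replicates 2 and 3 alone, where the 2 libraries of a group differ little, far more genes passed: 31.6% of genes in Wnt1 over control, 8.62% in Wnt1_KP6 over Wnt1 and 40.6% in Wnt1_KP6 over control. Of the members, 8 were called in Wnt1 over control, with FTH1, FTL, SLC39A14 and ACO1 higher and SLC40A1, TFRC, NCOA4 and STEAP3 lower. None was in Wnt1_KP6 over Wnt1, and 6 were in Wnt1_KP6 over control, the same 4 higher and SLC40A1 and STEAP3 lower. A model with a term for the difference between replicate 1 and replicates 2 and 3 called FTH1, FTL, ACO1 and STEAP3 in Wnt1 over control (24.6% of genes). In Wnt1_KP6 over control it called these 4 and SLC39A14 (32.8% of genes), the latter not without Wnt1_KP6 replicate 2 or 3 (adjusted p = 0.057 and 0.0695). In Wnt1_KP6 over Wnt1 it called 0 members (3.54% of genes). That model has 1 library a group for replicate 1 and takes all its error from replicates 2 and 3, so it assumes that replicate 1 would vary as little. These counts describe how far replicate 1 lay from the others and do not show that the response differed between replicates.

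**Figure D4:**
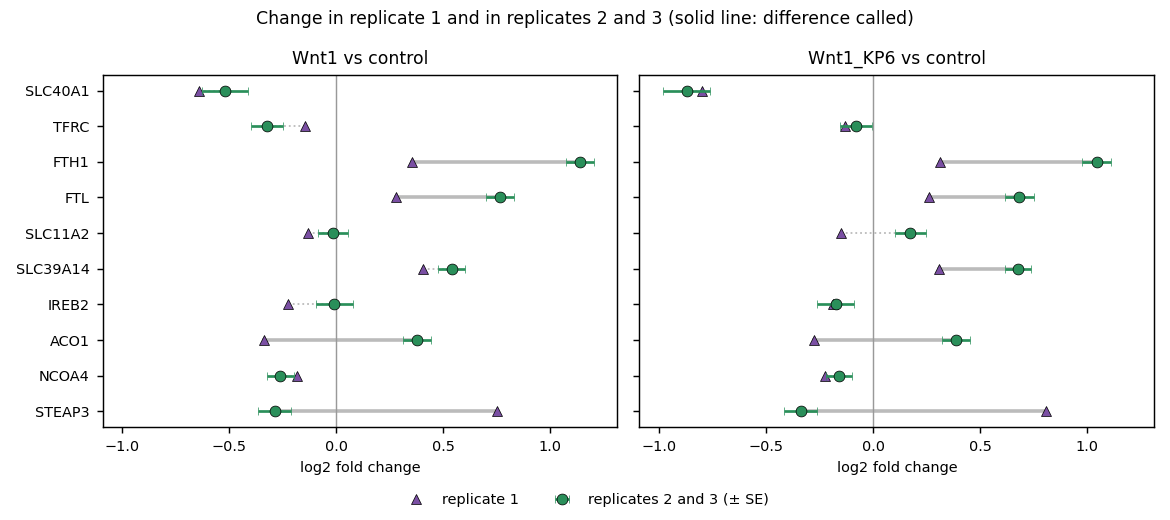
Log2 fold change of each iron gene in replicate 1 (triangles, 1 library a group, no error) and in replicates 2 and 3 (circles, with SE). Solid lines join values whose difference was called by a model whose error comes from replicates 2 and 3 alone. STEAP3 runs from 0.75 to -0.29 in Wnt1 over control and ACO1 from -0.34 to 0.38, whereas SLC40A1 lies at -0.64 and -0.52.

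Control replicate 1 lay apart from the other controls for FTH1, ACO1 and STEAP3. It also held more RNA of some fibroblast markers, though not of COL1A1. COL1A1 was at 6.67 FPKM in it, 6.69 in control replicate 3 and 6.98 in Wnt1_KP6 replicate 2. COL1A2 was at 1.43 FPKM in control replicate 1 and at most 0.132 in the other 8 libraries. COL3A1 was at 0.718 against at most 0.099, and DCN at 1.15 against at most 0.112. Of the 7 fibroblast markers 2 were under 1 CPM in every library, and their summed level was 4.93 to 11.3 FPKM in control, 3.76 to 5.97 in Wnt1 and 4.61 to 7.01 in Wnt1_KP6, mostly COL1A1. PDGFRA was at 0 in all libraries but control replicate 1. LUM was at 0.883, 0.898 and 0.64 FPKM in replicate 1 of the 3 groups and at most 0.042 elsewhere. Their part in the results was not tested.

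The wider iron network gave 90 tested genes of 105 in 6 lists. EdgeR called 0 of them in each comparison, with 16, 1 and 19 at an unadjusted p under 0.05 in Wnt1 over control, Wnt1_KP6 over Wnt1 and Wnt1_KP6 over control, beside 11.2%, 2.76% and 15.8% of all genes. DESeq2 called 4, 0 and 8 of the 90, beside 2.31%, 0.153% and 5.35% of all genes. The replicate block called 4, 0 and 4, beside 0.722%, 0% and 1.13%. Besides the genes named below the block's calls were SLC7A11 and SLC3A2, the subunits of the cystine importer, named after their values were seen, at these values: Wnt1 over control (0.74 ± 0.12, adjusted p = 0.0452, and 0.70 ± 0.08, adjusted p = 0.0141) and Wnt1_KP6 over control (0.67 ± 0.12, adjusted p = 0.0497, and 0.71 ± 0.08, adjusted p = 0.014). The 4 genes that DESeq2 called in Wnt1 over control were NUBP1, HMOX1, GCLC and SAT1.

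The medians of the list of lipid peroxide and ferroptosis genes, the systemic regulators and the heme genes lay further from 0 in the comparisons with control than those of the other 3 lists. Of 20 tested heme genes 13 were above 0 in Wnt1 over control (median 0.21, beside -0.003 over all genes) and 14 in Wnt1_KP6 over control (0.22, beside -0.005). The heme medians were 0.14 and 0.15 in replicate 1 and 0.23 and 0.225 in replicates 2 and 3. HMOX1, the oxygenase that frees iron from heme, was at 93.13, 37.80 and 42.09 CPM in control. It reached 212.4, 531.6 and 488.7 CPM in Wnt1-labelled libraries and 181.1, 469.9 and 416.1 in the Wnt1_KP6-labelled ones. No Wnt1-plasmid library overlapped with control, and replicate 1 was the lowest of both groups. Its log2 fold change was 2.83 ± 0.53 in Wnt1 over control (adjusted p = 0.114) and 2.62 ± 0.52 in Wnt1_KP6 over control (adjusted p = 0.0766), neither called by edgeR. Without control replicate 1 HMOX1 was called in both (3.36, adjusted p = 0.0169, and 3.16, adjusted p = 0.0173), and in the latter also without Wnt1_KP6 replicate 1 (2.94, adjusted p = 0.0168).

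The heme and porphyrin transporter ABCB6 was at 0.67 ± 0.23 in Wnt1 over control (adjusted p = 0.313), and was called there by the replicate block (adjusted p = 0.0491). BACH1, the heme-sensing repressor, was at 0.60 ± 0.18 in Wnt1_KP6 over control (adjusted p = 0.158). The list for ferroptosis, a cell death driven by iron and lipid peroxides, holds genes that restrain it, such as GPX4 and GCLC, and genes known to promote it, such as ACSL4, LPCAT3, ALOX5 and SAT1. Of its 17 tested genes 13 were above 0 in each comparison with control (medians 0.35 and 0.64, beside -0.003 and -0.005 over all genes). The list medians were 0.22 and 0.24 in replicate 1 and 0.605 and 0.82 in replicates 2 and 3. Genes above 0 included ACSL4 (0.14 ± 0.56 and 0.26 ± 0.56), LPCAT3 (0.64 ± 0.24 and 0.64 ± 0.24) and ALOX5 (0.44 ± 0.7 and 0.75 ± 0.7), while GPX4 was at -0.13 ± 0.10 and -0.15 ± 0.10. In replicate 1 ACSL4 (-0.47 and -0.48) and LPCAT3 (-0.18 and -0.14) were below 0, ALOX5 was at 0.22 and 0.65, and GPX4 at 0.035 and -0.01. ALOX5 was low, with group means of 0.43 to 0.73 CPM. These 4 were named after their values were seen, and edgeR called none of them. GCLC, the catalytic subunit of the first step of glutathione synthesis, was at 1.31 ± 0.27 (adjusted p = 0.128) and 1.38 ± 0.27 (adjusted p = 0.0721). The ubiquinone reductase AIFM2 was at 0.35 ± 0.10 in Wnt1 over control (adjusted p = 0.237) and the polyamine acetyltransferase SAT1 at 1.75 ± 0.40 in Wnt1_KP6 over control (adjusted p = 0.104). Without control replicate 1 GCLC was called in both comparisons with control (adjusted p = 0.0159 and 0.0115), and BACH1 (0.00667) and SAT1 (0.00125) in Wnt1_KP6 over control. There GCLC (0.00654) and SAT1 (0.0413) were called without Wnt1_KP6 replicate 1 too.

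Of 18 other uptake, reduction and oxidation genes 13 were tested, with medians of 0.04 and 0.02 in the comparisons with control. Transferrin itself (TF) was low, at 5.77, 6.53 and 7.55 CPM in control, and at 8.84, 11.2 and 11.8 in Wnt1_KP6-labelled libraries. It was at 0.68 ± 0.18 in that comparison (adjusted p = 0.133). The replicate block called TF there (adjusted p = 0.0471), as did the fit without Wnt1_KP6 replicate 1 (0.0422), which also called STEAP2 (-0.99, adjusted p = 0.0492). TF was at 0.46 ± 0.18 in Wnt1 over control (adjusted p = 0.383). The metalloreductase STEAP2 was at -0.60 ± 0.27 and -0.66 ± 0.27 (adjusted p = 0.448 and 0.279).

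Hepcidin (HAMP), the hormone that degrades ferroportin, did not pass the filter on low counts, and 5 of 10 systemic regulators were tested, with medians of 0.27 and 0.37 in the comparisons with control. Those medians were -0.105 and -0.139 in replicate 1, and 0.42 and 0.58 in replicates 2 and 3. EPAS1, a hypoxia factor whose own mRNA is known to carry an iron responsive element, was at 157.8, 60.12 and 61.62 CPM in control and at 247.5, 127.2 and 119.1 in Wnt1_KP6-labelled libraries. It was higher than its same-numbered control in each replicate, at 0.82 ± 0.48 in Wnt1_KP6 over control (adjusted p = 0.463). The replicate block called EPAS1 there (adjusted p = 0.014) and in Wnt1 over control (adjusted p = 0.0158). Both the comparison by number and the block assume a pairing that was not shown for replicates 2 and 3. HIF1A was at 0.31 ± 0.14 and 0.37 ± 0.14 in the comparisons with control (adjusted p = 0.454 and 0.243, and called without control replicate 1 at 0.0203 and 0.0115), and SMAD4 at -0.13 ± 0.07 in Wnt1 over control (adjusted p = 0.559).

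The 9 tested chaperones and storage partners had medians of 0.03 and 0.07 in the comparisons with control. Among them FBXL5, the iron-sensing subunit of the ligase that removes IREB2, was at -0.43 ± 0.21 in Wnt1 over control (adjusted p = 0.476) and at 0.48 ± 0.21 in Wnt1_KP6 over Wnt1 (adjusted p = 1). Its partner CUL1 was at -0.16 ± 0.08 and -0.09 ± 0.08 in the comparisons with control (adjusted p = 0.479 and 0.655), and HERC2 at 0.16 ± 0.10 in Wnt1_KP6 over control (adjusted p = 0.489). All 26 genes of mitochondrial iron and iron-sulfur clusters were tested, with medians of 0.03 and 0.01. The cluster assembly factor NUBP1 was at 0.45 ± 0.11 and 0.50 ± 0.11 (adjusted p = 0.187 and 0.0882), and the mitochondrial chaperone HSPA9 at 0.41 ± 0.13 and 0.50 ± 0.13 (adjusted p = 0.28 and 0.123). Without control replicate 1 NUBP1 was called in both (0.0276 and 0.0173), and HSPA9 was called in the latter without control replicate 1 (0.0305) or Wnt1_KP6 replicate 1 (0.0168).

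In Wnt1_KP6 over Wnt1 the genes with the smallest p of each list, FBXL5 included, all had an adjusted p of 1. NFE2L2, the master regulator of the antioxidant response, was at 0.76 ± 0.38, GCH1 at 0.74 ± 0.38 and IBA57 at 0.70 ± 0.35. Without Wnt1_KP6 replicate 1 NFE2L2 (1.13, adjusted p = 0.0213) and IBA57 (1.04, adjusted p = 0.0396) were called, in a fit that called 214 of 13305 genes. BACH1 (0.24 ± 0.18), TF (0.22 ± 0.18), ERFE (0.46 ± 0.57), CUL1 (0.07 ± 0.08) and SMAD4 (0.05 ± 0.07) were above 0. ISCA2 (-0.22 ± 0.21), SLC46A1 (-0.16 ± 0.12) and SLC22A17 (-0.14 ± 0.18) were below.

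**Figure D5:**
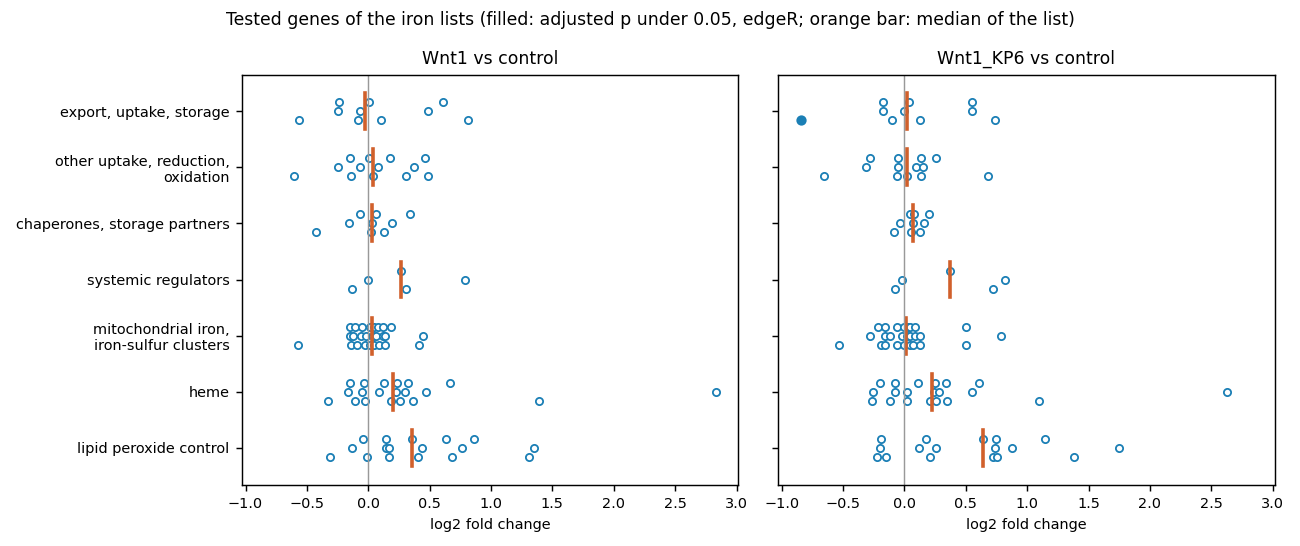
Log2 fold change of every tested gene of the 10 members and the 6 other iron lists in both comparisons with control, 1 point a gene, with an orange bar at the median of each list. SLC40A1 is the filled point at -0.84, HMOX1 the point furthest right (2.83 and 2.62), and the lists of mitochondrial iron and of chaperones cluster around 0.

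The genes whose log2 CPM over the 9 libraries was most like that of SLC40A1 were sought among 10604 others with a mean of at least 5 CPM. They were MTERF2 (Pearson r = 0.973), TIGD2 (0.972), ALG10B (0.969), ZNF302 (0.967) and TOP2A (0.965). For TFRC they were SCAMP1 (0.968), PPT1 (0.962), CTNNB1, which encodes beta-catenin (0.958), CCDC117 (0.958) and AP4E1 (0.953). These values are a description: the 9 points share libraries and depth, fall apart by replicate 1, and were ranked over all candidates.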

How the data were processed

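The authors deposited a table of expected counts and FPKM for 20323 genes in 9 libraries, per the file headers. Such estimated counts need not be whole, and 88.0% were. FPKM, which divides by gene length and sequencing depth, was used as the authors gave it. The submitters' processing notes name fastp 0.18.0, Bowtie2 2.2.8, HISAT2, StringTie 1.3.1, RSEM and hg38, with no roles. The annotation is not given in the sources used here. Poly(A) RNA was selected, per the labels' protocols.

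Counts were rounded, filtered with filterByExpr (minimum count 10, minimum total 15) and fitted with edgeR 4.0.16 (TMM, robust quasi-likelihood, 3 group means, no block) in R 4.3.3. Alternatives were DESeq2 1.42.0, its size factors in edgeR, no filter, a replicate block, each library left out, replicates 2 and 3 alone, replicate 1 alone (no test), and limma 3.58.1 on log2(FPKM + 0.1) and log2(FPKM + 1). A second edgeR model had a term for the difference between replicate 1 and the others; replicate 1 has 1 library a group, so all its error comes from replicates 2 and 3. The tests were also run on simulated counts with the same spread for every gene and without the shift of replicate 1 seen here. That run therefore does not show how the tests behave on these libraries. No 2 replicates agreed within sampling noise (chi-square per degree of freedom at least 3.09). Same-numbered libraries of different groups (numbers from the titles) deviated together from their group means (r = 0.11 to 0.672 in 9 pairs). Differently numbered ones gave -0.553 to 0.398. Among replicates 2 and 3, same-numbered pairs gave 0.11 to 0.412 and differently numbered ones 0.154 to 0.398. The correlations thus set replicate 1 apart but do not show that 2 pairs with 2 and 3 with 3. The replicate block assumes that pairing, and the main fit does not use it. Coordinates and transcripts are from GENCODE release 29 on GRCh38.

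The members, lists and tests were chosen with earlier results of these data known. The rule for named genes took all 10 members, and from each of the 6 other lists the called genes or else the 2 with the smallest p in each comparison.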

Additional observations from a re-analysis of the deposited data

How the results depend on the processing

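These libraries are few, and replicate 1 stands apart in every group. The counts of called genes moved widely between fits. Against 16 genes by edgeR in Wnt1 over control, DESeq2 called 302 and replicates 2 and 3 alone 4115. For Wnt1_KP6 over Wnt1 the counts were 0 by edgeR, 20 by DESeq2 and 1124 in replicates 2 and 3 alone. For Wnt1_KP6 over control they were 30 by edgeR, 674 by DESeq2, 19 and 11 by limma on FPKM with the smaller and larger pseudocount, and 5293 in replicates 2 and 3 alone. Leaving out each library gave 0 to 879, 0 to 214 and 0 to 1198 genes in the 3 comparisons, the highest without control replicate 1, Wnt1_KP6 replicate 1 and control replicate 1. The genes whose change differed between replicate 1 and the others numbered 2180 to 5587 in Wnt1 over control and 273 to 1143 in Wnt1_KP6 over Wnt1 when a library of replicates 2 or 3 was left out. The cause was not tested.

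With the replicate block, 95 genes were called in Wnt1 over control and 149 in Wnt1_KP6 over control. Of the members' calls the block changed that of SLC39A14 in Wnt1_KP6 over control and no other. With the block STEAP3 was at 0.017 in that comparison.

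The sign turned for the members and other iron genes given here. Replicate 1 alone has no test, and of the tested values that of STEAP3 in replicates 2 and 3 was called. In replicate 1 alone ACO1 was at -0.338 and -0.274 over control in the Wnt1 and Wnt1_KP6 groups, SLC11A2 at -0.15 and STEAP3 at 0.809 in Wnt1_KP6 over control. In replicates 2 and 3 alone STEAP3 was at -0.287 in Wnt1 over control. For Wnt1_KP6 over Wnt1, replicate 1 alone gave SLC11A2 -0.019, SLC39A14 -0.1, IREB2 0.039, NCOA4 -0.041, STEAP3 0.058, NFE2L2 -0.088, GCH1 -0.136, SLC46A1 0.073, BACH1 -0.064 and SMAD4 -0.021. There limma with the smaller and larger pseudocount gave SLC39A14 -0.006 and -0.006, ACO1 -0.026 and -0.025, SLC22A17 0.005 and 0.004, and SMAD4 -0.017 and -0.016.

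Without single libraries SLC11A2 ranged from -0.28 to 0.202, -0.024 to 0.321 and -0.099 to 0.307 in Wnt1 over control, Wnt1_KP6 over Wnt1 and Wnt1_KP6 over control, and STEAP3 from -0.227 to 0.179, -0.109 to 0.051 and -0.237 to 0.17. In Wnt1 over control ACO1 ranged from -0.022 to 0.365 and IREB2 from -0.181 to 0.008, FTL from -0.153 to 0.017 in Wnt1_KP6 over Wnt1, and TFRC from -0.226 to 0.052 in Wnt1_KP6 over control. The difference between replicate 1 and the others for SLC40A1 ranged from -0.008 to 0.267 in Wnt1 over control and from -0.201 to 0.075 in Wnt1_KP6 over control.

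As a share of summed FPKM, ferritin took 2.279%, 1.546% and 1.684% in control, 2.715%, 3.021% and 2.876% in Wnt1 and 2.664%, 2.685% and 2.638% in Wnt1_KP6 libraries, with controls again below the rest.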
